A study of Homo sapiens with 12 samples.

Results

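The genes described here are 61 genes that were close to silent in KARPAS-422 lymphoma cells given vehicle (DMSO) and measurable in every library of cells given the EZH2 inhibitor CPI-169. A gene was taken if it lay on a primary chromosome, was below 0.5 FPKM in each of the 3 DMSO libraries and reached 2 FPKM in each of the 3 CPI-169 libraries, and if its symbol did not start with IG, IFI, MT1 or HIST. FPKM is a number of sequenced fragments corrected for the length of the transcript and the size of the library. Of 57296 genes on primary chromosomes with a value in every library, 40341 were below the DMSO limit, and the 61 genes were 0.151% of those. The KARPAS-422 values chose the genes, so they are given below as a description with no test; the Pfeiffer and RL libraries had no part in the choice.

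RNA was sequenced in 12 libraries from 3 established human cell lines, all derived from diffuse large B cell lymphoma of the germinal centre type. All of the lines carry an activating mutation in the catalytic SET domain of EZH2, so every group, DMSO included, carries such a mutation. For 4 days KARPAS-422 was kept in 1.5 µM CPI-169 (3 libraries) or in 0.1% DMSO (3 libraries), Pfeiffer in 1.5 µM GSK343 (2 libraries) or in 0.1% DMSO (2 libraries), and RL in 0.1% DMSO alone (2 libraries). The labels describe RL as the line whose phenotype does not respond to EZH2 inhibitors and the others as responsive. Each inhibitor was used in a single line, so that compound and line cannot be told apart.

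EZH2 is the enzyme of Polycomb repressive complex 2 (PRC2), which methylates lysine 27 of histone H3. Trimethylation of that residue marks promoters that are kept silent, typically those of genes for other cell types and other developmental stages, and it is lost slowly as cells divide without the enzyme. In germinal centre B cells EZH2 holds down cell cycle inhibitors and genes of plasma cell differentiation. Histone methylation was not measured in these libraries.

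The 61 genes ranged from tissue-restricted genes to widely used ones, and their promoters differed as much. The sequences that follow are the 250 bases before the transcription start of the 6 highest genes with an entry in the RefSeq promoter table for GRCh38.p14, written 5′ to 3′ on the strand of the gene, with every CpG dinucleotide in capitals. They were taken by CPI-169 level and not by their sequence. CpG was dense throughout in LHFPL2, KIAA1210 and ILDR2 and sparser in S100A4, LGALS9 and SOX2-OT. The GRCh38 positions are chr1:153545807-153546056 on the minus strand, chr5:78648773-78649022 on the minus strand, chr17:27630938-27631187 on the plus strand, chrX:119150580-119150829 on the minus strand, chr3:181056430-181056679 on the plus strand and chr1:166975541-166975790 on the minus strand, in the order of the lines.
S100A4: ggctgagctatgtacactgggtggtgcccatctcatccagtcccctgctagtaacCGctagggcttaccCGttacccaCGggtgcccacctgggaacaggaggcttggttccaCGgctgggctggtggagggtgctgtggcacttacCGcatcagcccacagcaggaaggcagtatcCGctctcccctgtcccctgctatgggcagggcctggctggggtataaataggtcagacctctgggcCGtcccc
LHFPL2: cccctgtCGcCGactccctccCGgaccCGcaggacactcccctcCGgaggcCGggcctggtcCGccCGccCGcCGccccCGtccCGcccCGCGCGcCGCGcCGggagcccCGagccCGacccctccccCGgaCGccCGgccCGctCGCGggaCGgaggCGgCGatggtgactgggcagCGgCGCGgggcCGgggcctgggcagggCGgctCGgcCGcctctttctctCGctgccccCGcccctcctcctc
LGALS9: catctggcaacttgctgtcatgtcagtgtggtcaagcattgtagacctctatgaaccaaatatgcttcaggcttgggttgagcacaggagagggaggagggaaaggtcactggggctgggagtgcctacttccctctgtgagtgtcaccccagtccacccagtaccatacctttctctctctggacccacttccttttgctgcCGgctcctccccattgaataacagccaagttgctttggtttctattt
KIAA1210: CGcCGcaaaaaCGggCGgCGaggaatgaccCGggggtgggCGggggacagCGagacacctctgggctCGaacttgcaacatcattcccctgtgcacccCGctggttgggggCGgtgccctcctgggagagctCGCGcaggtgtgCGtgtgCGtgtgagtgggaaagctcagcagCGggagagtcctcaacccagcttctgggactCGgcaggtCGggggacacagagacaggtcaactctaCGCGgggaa
SOX2-OT: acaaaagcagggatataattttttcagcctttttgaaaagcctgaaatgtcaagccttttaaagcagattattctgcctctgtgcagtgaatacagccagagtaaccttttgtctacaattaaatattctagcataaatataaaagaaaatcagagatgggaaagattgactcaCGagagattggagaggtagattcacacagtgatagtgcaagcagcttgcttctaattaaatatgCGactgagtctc
ILDR2: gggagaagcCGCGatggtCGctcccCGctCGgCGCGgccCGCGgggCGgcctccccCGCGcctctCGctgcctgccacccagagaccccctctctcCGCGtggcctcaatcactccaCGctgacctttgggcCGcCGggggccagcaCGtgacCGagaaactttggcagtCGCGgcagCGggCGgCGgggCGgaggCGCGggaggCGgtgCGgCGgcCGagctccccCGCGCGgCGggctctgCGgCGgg

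These stretches held 38 CpG in LHFPL2, 38 in ILDR2 and 20 in KIAA1210, against 7 in S100A4, 2 in SOX2-OT and 1 in LGALS9. The table held promoters of 41 of the 61 genes. Over a window of 300 bases, from 250 before the start to 50 after it, 21 of the 41 were rich in CpG (51.2%), meaning at least 55% G and C and at least 0.6 of the CpG number that the base composition would give. Among the 37 protein-coding genes with a promoter this share was 56.8%, beside 59.8% of all 15843 protein-coding promoters in the table, so the genes were drawn from CpG-rich and CpG-poor promoters in about the usual proportion. The motif TATAAA, searched on the strand of the gene, was in 18.9% of the promoters of the 37 coding genes and in 6.91% of all coding promoters. It was found in 8 promoters in all, those of S100A4, SOX2-OT, DHRS9, MS4A12, AQP2, SRGAP3, PARVG and SLC2A5. The GC box GGGCGG, searched on both strands, was in 59.5% of the coding genes' promoters and 58.5% of all coding promoters. The core of the interferon-stimulated response element, GAAA followed by any 2 bases and GAAA again, was searched on both strands and was in the promoters of LGALS9, MS4A12 and AIM2, 8.11% of the coding genes' promoters beside 3.17% of all. TTCNNNGAA, the palindromic core of STAT binding sites, was in the promoters of DHRS9, FMOD and NREP, 8.11% beside 6.97% of all, and no promoter of the 41 held both this motif and the preceding one.

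As for the libraries, between 13974 and 16357 genes reached 1 FPKM. Pearson's r between replicates across genes was 0.993 to 0.996 with CPI-169, 0.994 to 0.997 with DMSO in KARPAS-422, 0.97 with GSK343, 0.996 with DMSO in Pfeiffer and 0.997 in RL, so the GSK343 libraries differed most from each other. All 9 B cell markers had values. Their summed level was 1603 to 1731 FPKM with CPI-169 and 1982 to 2171 FPKM with DMSO in KARPAS-422. In Pfeiffer it was 2156 to 2567 FPKM with GSK343 and 2663 to 2719 FPKM with DMSO, and in RL 1791 to 1792 FPKM. Most of the Pfeiffer sum was CD79B and MS4A1. EBF1 was low there, at 0.584 and 0.11 FPKM with GSK343 and 0.233 and 0.395 FPKM with DMSO. The 5 myeloid markers were each below 0.5 FPKM in every library, with sums of at most 0.604 FPKM. The 7 T and NK cell markers summed to 53.3 to 59.96 FPKM with CPI-169 and 35.5 to 37.2 FPKM with DMSO in KARPAS-422, nearly all of it CD3G, to 298 to 396 FPKM with GSK343 and 411 to 413 FPKM with DMSO in Pfeiffer, nearly all of it CD8A, and to 4.72 to 5.26 FPKM in RL. EPCAM, an epithelial marker, stood at 49.8 and 66.7 FPKM with GSK343 and 134 and 135 FPKM with DMSO in Pfeiffer, and at 0.11 FPKM or less in the other lines. The 5 epithelial and stromal markers with values summed to 0.659 to 0.893 FPKM with CPI-169 and 0.497 to 0.607 FPKM with DMSO in KARPAS-422. EZH2 transcript itself measured 41.5, 40.4 and 41.1 FPKM with CPI-169, against 44.4, 48.7 and 49.1 FPKM with DMSO in KARPAS-422, and the difference did not pass in limma (adjusted p = 0.175). In Pfeiffer it was 13.8 and 20.9 FPKM with GSK343, against 31.6 and 30.8 FPKM with DMSO, lower by a log2 difference of -0.84 (limma, adjusted p = 0.00169).

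Most of the 61 genes came up to a low level, and a few to a substantial one. The mean with CPI-169 ran from 2.15 to 22.8 FPKM with a median of 3.08 FPKM, and the mean with DMSO ran from 0 to 0.423 FPKM with a median of 0.231 FPKM. In 26 genes the CPI-169 mean stayed under 3 FPKM, in 17 it was at least 4 FPKM, in 10 at least 5 FPKM and in 4 at least 10 FPKM. Of the 59 genes with any signal with DMSO, the ratio of the CPI-169 mean to the DMSO mean was 6.22 to 150 with a median of 15.7, and the other 2, RP3-523C21.1 and CLYBL-AS2, were listed at 0 in all 3 DMSO libraries. The CPI-169 libraries agreed closely, with a coefficient of variation of 0.986% to 28.1% over the genes and a median of 7.17%. The lowest of the 3 CPI-169 values was in replicate 2 for 30 of the genes. In RNA from bulk cultures, a low level in every cell and a high level in a few cells cannot be told apart, nor can fewer cells of a kind and less RNA per cell.

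**Figure D1:**
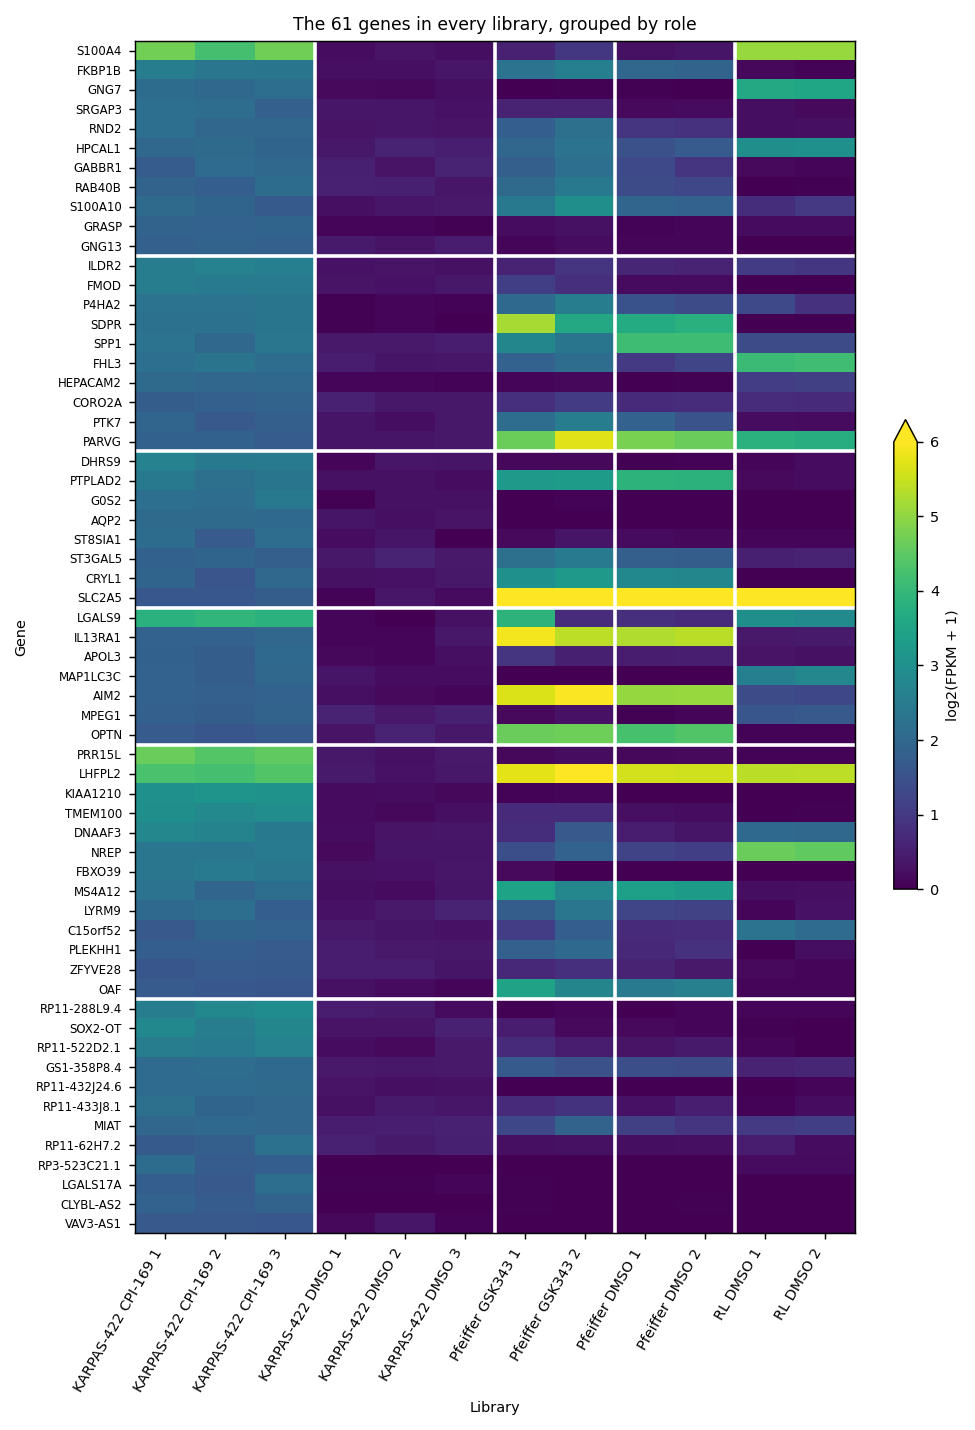
Level of each of the 61 genes (rows, grouped by role and sorted within a group by CPI-169 mean) in each of the 12 libraries (columns), as log2(FPKM + 1), with the colour scale ending at 6. The CPI-169 columns are bright and the KARPAS-422 DMSO columns dark in every row, as the choice of genes sets, while the Pfeiffer and RL columns range from genes at 0 to genes well above their CPI-169 level, of which SLC2A5 is the brightest, with a mean of 123 FPKM in Pfeiffer DMSO.

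The limits of the choice cut through a continuous range of values. Just inside the CPI-169 limit were CRYL1 with 2.81, 2 and 3.08 FPKM, ZFYVE28 with 2.02, 2.31 and 2.27 FPKM and OAF with 2.3, 2.11 and 2.03 FPKM in the CPI-169 libraries. Just outside it were REEP6 with 2.17, 2.04 and 1.97 FPKM, FILIP1L with 1.94, 2.09 and 2.02 FPKM and RP11-1079K10.4 with 2, 2.59 and 1.94 FPKM. Just inside the DMSO limit were HPCAL1 with 0.302, 0.493 and 0.426 FPKM, OPTN with 0.238, 0.491 and 0.308 FPKM and ST3GAL5 with 0.309, 0.489 and 0.329 FPKM in the DMSO libraries, and just outside were NBPF3 with 0.357, 0.419 and 0.504 FPKM, ANO10 with 0.386, 0.512 and 0.511 FPKM and KIF26B with 0.492, 0.513 and 0.427 FPKM. Another 3 genes met both limits and were left out by symbol. These were the metallothionein gene MT1B, at 16.2, 12.1 and 12.5 FPKM with CPI-169 against 0.147, 0.34 and 0.465 FPKM with DMSO, and the histone genes HIST2H2BE and HIST1H3H. By class in GENCODE 29, 49 of the 61 genes code for protein, 10 are non-coding RNA genes and 2 are transcribed pseudogenes. They lie on 20 chromosomes, with 12 genes on chromosome 1 (19.7% of the set, beside 10.0% of tested genes) and 7 on chromosome 17 (11.5% beside 5.97%).

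The largest group by function, 11 genes, belongs to signalling through G proteins, small GTPases and calcium, and several of its genes are known best from the nervous system. S100A4, at chr1:153516088-153522612 in hg19, codes for a calcium-binding protein of motile cells such as fibroblasts and memory T cells and was the highest gene of all with CPI-169. It measured 25.3, 17.8 and 25.2 FPKM with CPI-169, against 0.157, 0.243 and 0.166 FPKM with DMSO, a ratio of means of 121. RL cells held it at 32.7 and 32.8 FPKM without any inhibitor, above every CPI-169 library of KARPAS-422, whereas Pfeiffer cells had 0.463 and 0.976 FPKM with GSK343 and 0.21 and 0.258 FPKM with DMSO. Its relative S100A10, the binding partner of annexin A2, measured 3.2, 2.84 and 2.25 FPKM with CPI-169 against 0.181, 0.28 and 0.335 FPKM with DMSO in KARPAS-422, and 4.4 and 6.94 FPKM with GSK343 against 2.87 and 2.69 FPKM with DMSO in Pfeiffer. The G protein gamma subunit genes GNG7, known from the striatum of the brain, and GNG13, known from taste and retinal cells, averaged 3.32 ± 0.22 and 2.64 ± 0.128 FPKM with CPI-169, against 0.134 ± 0.047 and 0.323 ± 0.0745 FPKM with DMSO (SD, n = 3 each). The remaining calcium sensors and channel partners were HPCAL1, a visinin-like protein of neurons, at 3.01, 3.21 and 2.81 FPKM with CPI-169, and FKBP1B, which binds the ryanodine receptor in heart muscle, at 4.83, 4.11 and 4.05 FPKM. Regulators of small GTPases and of the actin skeleton were represented by RND2, a small GTPase that guides migrating cortical neurons, SRGAP3, a GTPase-activating protein of developing neurons, and RAB40B. They averaged 3.16 ± 0.349, 3.18 ± 0.526 and 2.85 ± 0.447 FPKM with CPI-169, against 0.26 ± 0.0254, 0.266 ± 0.0322 and 0.395 ± 0.0987 FPKM with DMSO (SD, n = 3 each). GABBR1, a subunit of the GABA-B receptor, and GRASP, a scaffold of metabotropic glutamate receptors, averaged 2.88 ± 0.484 and 2.75 ± 0.0695 FPKM with CPI-169, against 0.391 ± 0.122 and 0.0516 ± 0.0276 FPKM with DMSO.

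A group of 10 genes codes for proteins of the extracellular matrix, of adhesion and of the cytoskeleton. ILDR2, a membrane protein with an immunoglobulin-like domain, was the highest of them with CPI-169, at 4.74, 5.36 and 5 FPKM against 0.226, 0.238 and 0.21 FPKM with DMSO. Its levels elsewhere were 0.513 and 0.906 FPKM with GSK343 and 0.567 and 0.524 FPKM with DMSO in Pfeiffer, and 1.07 and 0.925 FPKM in RL, all below the CPI-169 libraries. FMOD codes for fibromodulin, a proteoglycan that binds collagen fibrils in tendon and cartilage, and measured 4.79, 4.63 and 4.61 FPKM with CPI-169 against 0.253, 0.234 and 0.303 FPKM with DMSO. P4HA2, a subunit of the enzyme that hydroxylates prolines of collagen, was at 3.9, 3.89 and 4.03 FPKM with CPI-169 against 0.025, 0.058 and 0.0397 FPKM with DMSO, so 2 genes of collagen biology were among the set. SPP1, the gene for osteopontin of bone and macrophages, averaged 3.71 ± 0.575 FPKM with CPI-169 against 0.347 ± 0.0286 FPKM with DMSO, and SDPR, which codes for the caveolar coat protein cavin-2, averaged 3.88 ± 0.156 against 0.0264 ± 0.0267 FPKM (SD, n = 3 each). The adhesion and cytoskeletal genes were FHL3, a LIM protein of skeletal muscle, HEPACAM2, a cell adhesion molecule of the immunoglobulin family, CORO2A, a coronin, PTK7, a receptor pseudokinase of planar cell polarity, and PARVG, the parvin of blood cells, which links integrins to actin. Their CPI-169 means were 3.64, 3.08, 2.58, 2.53 and 2.52 FPKM in that order.

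Metabolism accounted for 8 genes, among them enzymes and regulators of retinoid, fatty acid, triglyceride and ganglioside metabolism. DHRS9, a retinol dehydrogenase, measured 5.36, 4.41 and 4.53 FPKM with CPI-169 against 0.0596, 0.276 and 0.261 FPKM with DMSO, with all Pfeiffer and RL libraries at 0.153 FPKM or less. PTPLAD2, a dehydratase of very long chain fatty acid synthesis, was at 4.37, 3.68 and 4.02 FPKM with CPI-169 against 0.204, 0.204 and 0.157 FPKM with DMSO. G0S2, an inhibitor of the adipose triglyceride lipase, measured 3.58, 3.4 and 4.36 FPKM with CPI-169 against 0.0322, 0.199 and 0.204 FPKM with DMSO, and was listed at 0 in both Pfeiffer DMSO libraries and both RL libraries. The ganglioside enzymes were both present: ST3GAL5, the GM3 synthase, at 2.65, 2.85 and 2.53 FPKM with CPI-169, and ST8SIA1, the GD3 synthase known from neural tissue and melanoma, at 3.33, 2.29 and 3.4 FPKM. AQP2 is the vasopressin-regulated water channel of the kidney collecting duct. It measured 3.24, 3.19 and 3.17 FPKM with CPI-169, the most even values of the set, against 0.274, 0.182 and 0.236 FPKM with DMSO, and was listed at 0 in both DMSO libraries of Pfeiffer and in RL. CRYL1, a dehydrogenase of L-gulonate in liver and kidney, averaged 2.63 ± 0.56 FPKM with CPI-169 against 0.252 ± 0.058 FPKM with DMSO, and SLC2A5, the fructose transporter GLUT5 of the small intestine, averaged 2.19 ± 0.181 FPKM against 0.148 ± 0.121 FPKM (SD, n = 3 each).

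Another 7 genes act in innate immunity, cytokine reception or autophagy. LGALS9, which codes for galectin-9, a lectin induced by interferon, measured 13.3, 14.4 and 13.3 FPKM with CPI-169 against 0.0738, 2.16e-06 and 0.2 FPKM with DMSO, and its ratio of means of 149.8 was the highest in the set. In Pfeiffer the GSK343 libraries held 13.8 and 0.705 FPKM, against 0.778 and 0.633 FPKM with DMSO, so that 1 of them was far above DMSO and the other level with it; RL held 6.91 and 6.16 FPKM. LGALS9 has near-identical copies in the genome, and how shared reads were assigned is not given, so its level is uncertain. AIM2, a sensor of cytosolic DNA, measured 2.68, 2.58 and 2.67 FPKM with CPI-169 against 0.193, 0.113 and 0.0747 FPKM with DMSO, and APOL3, an apolipoprotein L induced by interferon, measured 2.62, 2.4 and 3.15 FPKM against 0.0921, 0.0756 and 0.179 FPKM. MPEG1, the gene for the macrophage protein perforin-2, was at 2.57, 2.4 and 2.73 FPKM with CPI-169 against 0.483, 0.32 and 0.434 FPKM with DMSO, in libraries in which all 5 myeloid markers were below 0.5 FPKM. IL13RA1, a receptor chain for interleukins 4 and 13, was at 2.69, 2.72 and 2.94 FPKM with CPI-169 against 0.076, 0.0767 and 0.305 FPKM with DMSO. The autophagy genes were OPTN, the receptor optineurin, at 2.28, 2.06 and 2.25 FPKM with CPI-169, and MAP1LC3C, one of the LC3 proteins of the autophagosome membrane, at 2.72, 2.39 and 3.04 FPKM.

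Of 13 further protein-coding genes, several are known from tissues far from lymphocytes. PRR15L, at chr17:46029332-46035244 in hg19, was the second highest gene of the set and measured 23.6, 20.1 and 22.2 FPKM with CPI-169 against 0.312, 0.198 and 0.33 FPKM with DMSO. No Pfeiffer or RL library held more than 0.144 FPKM of it, with or without GSK343. LHFPL2, a tetraspan membrane protein, measured 18.4, 17.6 and 19.7 FPKM with CPI-169 against 0.351, 0.221 and 0.302 FPKM with DMSO, and the other lines held more than that without any inhibitor, at 40.3 and 41.5 FPKM in RL and 47 and 46.7 FPKM in Pfeiffer DMSO. KIAA1210, known from testis, was at 7.02, 7.59 and 7.44 FPKM with CPI-169 against 0.121, 0.143 and 0.0904 FPKM with DMSO and at 0.0573 FPKM or less in all Pfeiffer and RL libraries. TMEM100, a membrane protein of endothelium downstream of BMP signalling, was at 6.96, 6.03 and 6.72 FPKM with CPI-169 against 0.13, 0.0887 and 0.186 FPKM with DMSO. DNAAF3, needed to assemble the dynein arms of motile cilia, measured 5.89, 5.42 and 4.37 FPKM with CPI-169 against 0.141, 0.236 and 0.289 FPKM with DMSO, and RL held 3.17 and 3.03 FPKM. FBXO39, an F-box protein of testis, and MS4A12, a membrane protein of colonic epithelium, averaged 4.21 ± 0.184 and 3.42 ± 0.501 FPKM with CPI-169, against 0.237 ± 0.0433 and 0.187 ± 0.0742 FPKM with DMSO (SD, n = 3 each). NREP, a small protein of neurons and regenerating tissue, was at 4.12, 4.08 and 4.62 FPKM with CPI-169 against 0.117, 0.271 and 0.258 FPKM with DMSO. The rest of this group, LYRM9, C15orf52, PLEKHH1, ZFYVE28 (an endosomal protein that limits EGF receptor signalling) and OAF, had CPI-169 means of 3.02, 2.59, 2.41, 2.2 and 2.15 FPKM in that order, against 0.342, 0.278, 0.339, 0.343 and 0.139 FPKM with DMSO.

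Of the 12 non-coding genes and pseudogenes, 10 were below 0.5 FPKM in both Pfeiffer DMSO libraries and 10 in both RL libraries. Of all genes silent in KARPAS-422 with DMSO, 91.1% and 96.2% were, so low levels there are not particular to these genes. RP11-288L9.4 measured 4.86, 6.02 and 6.54 FPKM with CPI-169 against 0.399, 0.352 and 0.12 FPKM with DMSO, but it lies within the locus of IFI6, an interferon-stimulated gene at 513, 469 and 568 FPKM with CPI-169 and 29.4, 38.4 and 38 FPKM with DMSO, and reads of overlapping genes cannot be told apart here because strand handling is not given. SOX2-OT, the transcript that overlaps SOX2 and is known from brain, was at 5.93, 4.72 and 5.74 FPKM with CPI-169 against 0.24, 0.248 and 0.46 FPKM with DMSO. RP11-522D2.1 measured 4.83, 4.68 and 5.28 FPKM with CPI-169 against 0.15, 0.116 and 0.336 FPKM with DMSO. MIAT, a long RNA first described in heart disease and expressed in retina and brain, averaged 3.03 ± 0.104 FPKM with CPI-169 against 0.42 ± 0.0361 FPKM with DMSO (SD, n = 3 each), and was near 1 FPKM in both other lines. RP3-523C21.1, with 3.36, 2.35 and 2.44 FPKM, and CLYBL-AS2, with 2.71, 2.34 and 2.76 FPKM, came up in KARPAS-422 libraries where DMSO values were listed at 0; CLYBL-AS2 overlaps CLYBL, which was itself higher with CPI-169. The other 6 were GS1-358P8.4, RP11-432J24.6, RP11-433J8.1, RP11-62H7.2, VAV3-AS1, which overlaps VAV3, and the galectin pseudogene LGALS17A, with CPI-169 means from 2.18 to 3.28 FPKM.

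**Figure D2:**
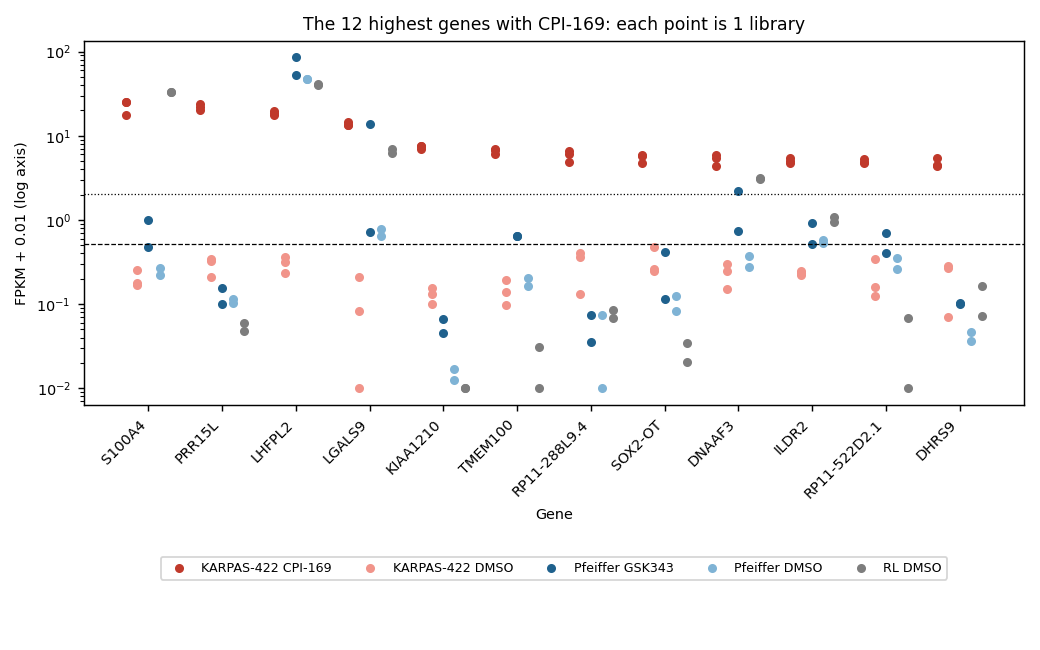
FPKM + 0.01 on a log axis for the 12 genes with the highest CPI-169 means; each point is 1 library, the dashed line marks the 0.5 FPKM limit and the dotted line the 2 FPKM limit. PRR15L and KIAA1210 are low in every library outside CPI-169, LHFPL2 is higher in Pfeiffer and RL than with CPI-169, S100A4 is higher in RL, and the GSK343 points of LGALS9 lie far apart at 13.8 and 0.705 FPKM.

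Levels in the other lines without inhibitor split the genes into recognisable sets. In Pfeiffer with DMSO, 15 of the 61 genes (24.59%) were at 2 FPKM or more in both libraries, where 3.08% of all 40341 genes silent in KARPAS-422 with DMSO were. Below 0.5 FPKM in both were 30 of the 61 (49.2%, beside 91.1% of the silent genes). In RL, 13 genes (21.3%) reached 2 FPKM in both libraries, where 0.825% of the silent genes did, and 39 were below 0.5 FPKM in both (63.9%, beside 96.2%). These background shares cover all silent genes, most of which are off in every line, and the CPI-169 limit kept the 61 to genes that can be measured. LHFPL2, SLC2A5 and PARVG were at 2 FPKM or more in both lines. SLC2A5, at 2.07, 2.11 and 2.4 FPKM with CPI-169 in KARPAS-422, stood highest elsewhere, at 76.7 and 76.3 FPKM in RL and 121 and 126 FPKM in Pfeiffer DMSO. PARVG was at 2.61, 2.61 and 2.34 FPKM with CPI-169, at 13.2 and 12.3 FPKM in RL and at 26.7 and 23.6 FPKM in Pfeiffer DMSO.

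Pfeiffer alone held 9 of the genes at 2 FPKM or more while RL was below 0.5 FPKM, namely FKBP1B, PTPLAD2, SDPR, MS4A12, IL13RA1, ST3GAL5, CRYL1, OPTN and OAF. IL13RA1 was the highest of these, with 0.322 and 0.342 FPKM in RL and 38.3 and 40.3 FPKM in Pfeiffer DMSO. RL alone held 5 at 2 FPKM or more while Pfeiffer DMSO was below 0.5 FPKM, namely S100A4, DNAAF3, GNG7, MAP1LC3C and MPEG1. GNG7 measured 11.3 and 10.5 FPKM in RL and 0.0298 and 3.58e-04 FPKM in Pfeiffer DMSO. MAP1LC3C measured 4.98 and 5.81 FPKM in RL and was listed at 0 in all 4 Pfeiffer libraries.

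Both other lines were below 0.5 FPKM for 24 genes. These were PRR15L, KIAA1210, TMEM100, SOX2-OT, DHRS9, FMOD, FBXO39, G0S2, AQP2, SRGAP3, ST8SIA1, GRASP, APOL3, GNG13, ZFYVE28, RP11-288L9.4, RP11-522D2.1, RP11-432J24.6, RP11-433J8.1, RP11-62H7.2, RP3-523C21.1, LGALS17A, CLYBL-AS2 and VAV3-AS1. The CPI-169 mean in KARPAS-422 exceeded the DMSO means of both other lines for 41 genes, and for 31 genes every CPI-169 library exceeded every Pfeiffer and RL library, GSK343 included. The choice of genes set the CPI-169 values at 2 FPKM or more, so any gene that stays below that elsewhere enters both counts. They describe the set and test nothing. The Pfeiffer DMSO mean exceeded the CPI-169 mean of KARPAS-422 for 13 genes, and the RL mean did for 10.

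**Figure D3:**
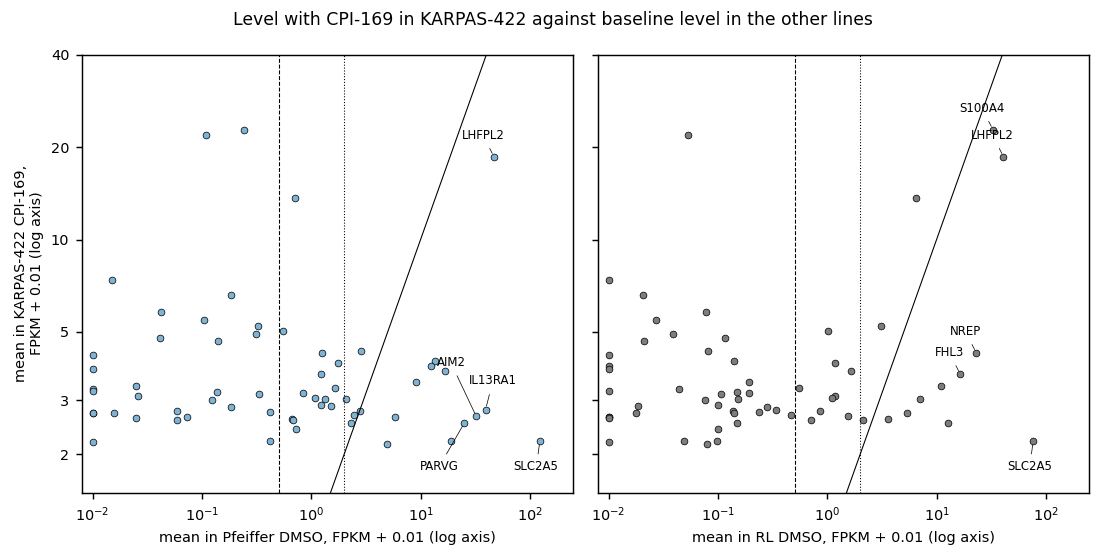
Mean FPKM + 0.01 with CPI-169 in KARPAS-422 (vertical log axis) against the mean with DMSO in Pfeiffer (left) and in RL (right) on horizontal log axes; each point is 1 gene, the diagonal marks equal levels, and the dashed and dotted lines mark 0.5 and 2 FPKM. Named are the 5 highest genes of each line, with SLC2A5 at 123 FPKM in Pfeiffer and 76.5 FPKM in RL; most points lie left of the diagonal.

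The Pfeiffer libraries allow a test on values that did not choose the genes. In limma across the 18731 genes that reached 1 FPKM in 2 or more libraries, on log2(FPKM + 1) with Benjamini-Hochberg adjustment, 24 of the 61 genes were higher with GSK343 than with DMSO (39.3%), where 12% of all tested genes were. All 61 genes passed the filter on low values, 26 of them through the CPI-169 libraries alone. Of the other 35, which pass without those libraries, 20 were higher with GSK343 (57.1%, beside 12.1% of tested genes that pass in this way) and 2 were lower (5.71%, beside 17.9%), counts added after the data were seen. That filter still counts the GSK343 libraries, and outside CPI-169 PLEKHH1 and RND2 reached 1 FPKM in those libraries alone. The shares of the 35 are therefore a description, and no conclusion is drawn from them. Lower with GSK343 were 2 genes, SPP1 and PTPLAD2 (3.28%, beside 17.5% of tested genes), and 35 were not called. The median log2 difference of the 61 genes was 0.25, beside -0.03 over all tested genes, with 52 positive and 5 negative values. Among the 24 higher genes the difference ran from 0.35 to 1.16 with a median of 0.66. The 2 GSK343 libraries both lay above both DMSO libraries for 39 genes (63.9%, beside 23.9% of tested genes) and both below for 2 genes (3.28%, beside 34%). These counts are taken over all 61 genes, with the 26 that passed the filter through the CPI-169 libraries alone, so no conclusion is drawn from them. G0S2, among the 39, measured 0.0145 and 0.0361 FPKM with GSK343 against 0 in both DMSO libraries. Of all calls in this comparison 40.7% were higher, a share that became 51% after quantile normalization, with 21 of the 61 genes and 14.2% of tested genes higher, and 65.3% after scaling to equal medians, with 30 of the 61 genes and 20.2% of tested genes higher. Without the first Pfeiffer DMSO library 14 of the 61 genes and 6.44% of tested genes were higher, and without the second 13 and 7.71%. Without the first GSK343 library 30 of the 61 genes and 23.8% of tested genes were higher, and 4 of the 61 were lower. With the Pfeiffer libraries fitted alone no gene of the 18731 passed.

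Of the 31 genes that were not below 0.5 FPKM in both Pfeiffer DMSO libraries, 19 were higher with GSK343 (61.3%, beside 12.2% of tested genes at such levels in Pfeiffer DMSO). Among the 31, ILDR2 and CORO2A passed the filter on low values through the CPI-169 libraries alone. Outside CPI-169, PLEKHH1 and RND2 passed through the GSK343 libraries alone. The 12.2% covers genes at any level in KARPAS-422, so the 2 shares are a description and no conclusion is drawn. Of the 30 that were below it, 24 passed the filter on low values through the CPI-169 libraries alone, so their share of calls is not set against that of other genes. Higher with GSK343 among the 30 were TMEM100, FMOD, DNAAF3, SRGAP3 and RP11-433J8.1. All of these but DNAAF3 were tested only because the CPI-169 libraries carried them past the filter. Their calls are given as a description. None of the 30 reached 1 FPKM in both GSK343 libraries. FMOD came nearest, with 1.17 and 0.79 FPKM with GSK343 against 0.125 and 0.134 FPKM with DMSO (log2 difference 0.80 ± 0.10 (SE), limma adjusted p = 1.90e-04). DNAAF3 reached 2 FPKM in 1 library, with 0.724 and 2.19 FPKM with GSK343 against 0.367 and 0.266 FPKM with DMSO. Applying the same limits to Pfeiffer found 2 genes outside the left-out symbols, CLU at 3.91 and 2.51 FPKM with GSK343 against 0.457 and 0.0853 FPKM with DMSO, and SLFN5 at 4.56 and 2.42 FPKM against 0.411 and 0.456 FPKM. Neither was among the 61: with CPI-169 in KARPAS-422, CLU was at 0.0207, 0.108 and 0.201 FPKM and SLFN5 at 0.468, 0.572 and 0.606 FPKM.

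By role, higher with GSK343 were 7 of 11 signalling, 8 of 13 further protein-coding and 4 of 10 matrix, adhesion and cytoskeleton genes. So were 2 of 7 immune and autophagy, 1 of 8 metabolic and 2 of 12 non-coding genes, beside 12% of all tested genes. In that order, 5, 6, 2, 3, 4 and 10 genes of the roles were below 0.5 FPKM in both Pfeiffer DMSO libraries. Most such genes passed the filter through the CPI-169 libraries alone, so the counts do not rank the roles or set them against that share. PLEKHH1, a protein with pleckstrin homology, MyTH4 and FERM domains, had the smallest adjusted p. It measured 2.57 and 3.12 FPKM with GSK343, against 0.626 and 0.814 FPKM with DMSO (log2 difference 1.16 ± 0.11 (SE), limma adjusted p = 3.27e-05). RND2 measured 2.46 and 3.67 FPKM with GSK343, against 0.857 and 0.796 FPKM with DMSO (log2 difference 1.14 ± 0.13 (SE), limma adjusted p = 1.55e-04). In both genes the GSK343 values came up to about the CPI-169 level of KARPAS-422 and did not overlap the DMSO values. Outside CPI-169, both genes reached 1 FPKM in the GSK343 libraries alone. FHL3 was at 2.68 and 3.44 FPKM with GSK343, against 1.03 and 1.39 FPKM with DMSO (log2 difference 0.88 ± 0.12 (SE), limma adjusted p = 4.88e-04). RAB40B was at 3.18 and 4.38 FPKM with GSK343, against 1.61 and 1.42 FPKM with DMSO (log2 difference 0.91 ± 0.14 (SE), limma adjusted p = 9.36e-04). AIM2 rose on a level already high, with 50.3 and 61.6 FPKM with GSK343 against 31.9 and 32.7 FPKM with DMSO (log2 difference 0.77 ± 0.11 (SE), limma adjusted p = 5.15e-04).

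The other genes higher with GSK343 were GABBR1, P4HA2, LYRM9, S100A10, C15orf52, PTK7, MIAT, ST3GAL5, OAF, HPCAL1, LHFPL2, FKBP1B, NREP and OPTN, with log2 differences from 0.35 for OPTN to 0.86 for GABBR1. HPCAL1 measured 2.95 and 3.85 FPKM with GSK343 against 1.81 and 2.3 FPKM with DMSO, and ST3GAL5 measured 3.62 and 4.68 FPKM against 2.51 and 2.41 FPKM. LHFPL2 was at 53.2 and 85.5 FPKM with GSK343 against 47 and 46.7 FPKM with DMSO. Its call was no longer past the threshold in 15 of the alternative settings, that of OAF in 18 and that of OPTN in 11, against 1 for PLEKHH1. The fit used 1 spread per gene across the 5 groups, so closer replicates of other groups entered the GSK343 comparison. The GSK343 libraries differed from each other: 21 of the 24 higher genes had more in replicate 2 than in replicate 1. LGALS9, in contrast, had the highest log2 difference of the 61 genes (1.56 ± 0.69 (SE)) from replicate 1 alone and was not called (limma, adjusted p = 0.115). SDPR was at 35.9 and 11.3 FPKM with GSK343 against 11.8 and 13 FPKM with DMSO, also through replicate 1, and was not called (log2 difference 0.67, limma adjusted p = 0.19). Without that library its log2 difference was -0.13. APOL3 was at 0.868 and 0.431 FPKM with GSK343 against 0.398 and 0.417 FPKM with DMSO and was not called.

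SPP1 and PTPLAD2 went the other way in Pfeiffer. SPP1 fell to 5.77 and 4.01 FPKM with GSK343, against 16.6 and 16.6 FPKM with DMSO (log2 difference -1.60 ± 0.15 (SE), limma adjusted p = 3.66e-05). PTPLAD2 fell to 8.5 and 8.98 FPKM with GSK343, against 13.7 and 13.6 FPKM with DMSO (log2 difference -0.59 ± 0.09 (SE), limma adjusted p = 0.00116). Both were among the genes that Pfeiffer already held well above the CPI-169 level of KARPAS-422. SLC2A5, the highest of all in Pfeiffer, was at 123 and 86.1 FPKM with GSK343 against 121 and 126 FPKM with DMSO and was not called (limma, adjusted p = 0.227).

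**Figure D4:**
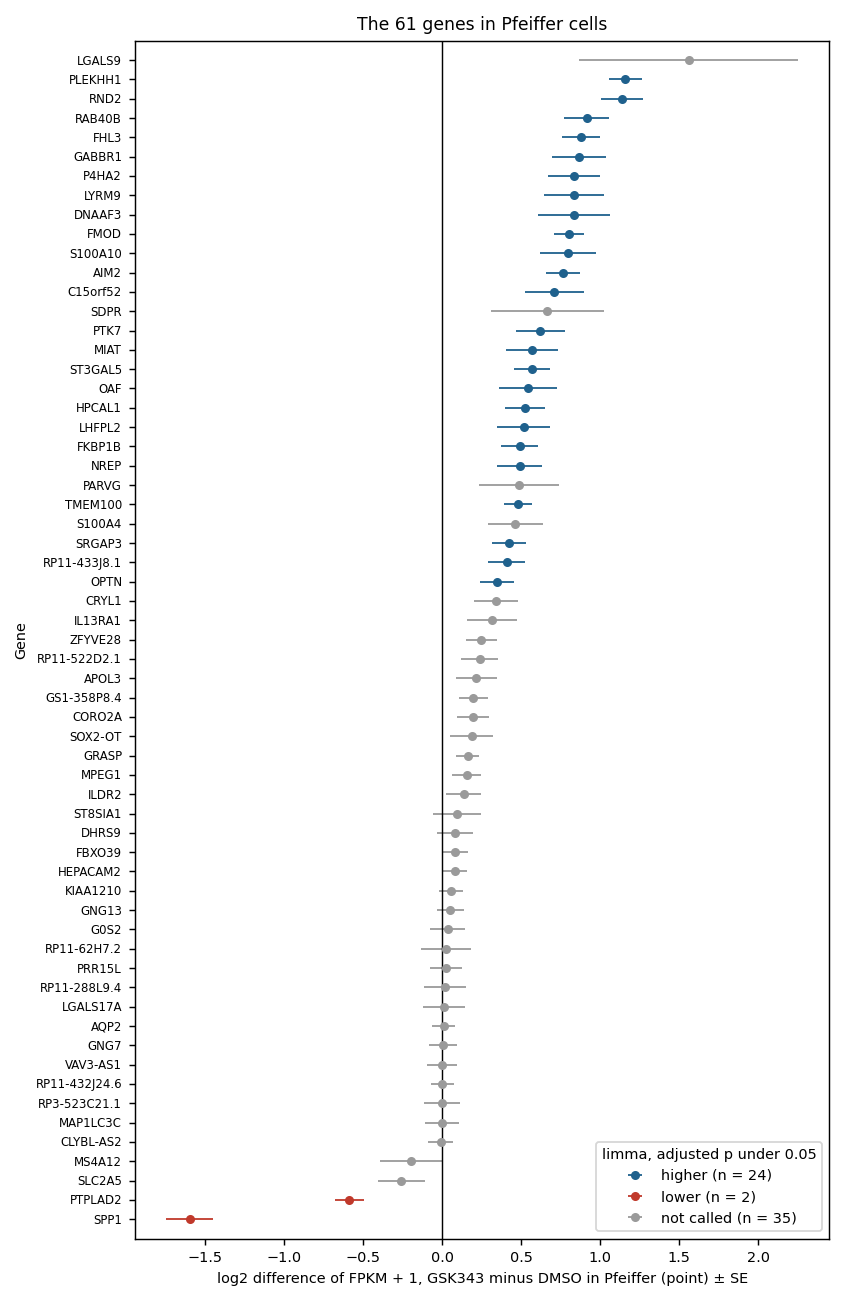
Log2 difference of FPKM + 1 between GSK343 (n = 2) and DMSO (n = 2) in Pfeiffer for each of the 61 genes, sorted, with the standard error from limma as bars and colours for the call at an adjusted p of 0.05. The 24 higher genes lie between 0.35 and 1.16, SPP1 and PTPLAD2 are the 2 lower genes, and LGALS9 has the widest bar.

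RL was set against Pfeiffer with DMSO to order the baseline levels of the lines; this comparison shares the Pfeiffer DMSO libraries with the preceding one. Of the 61 genes, 12 were higher in RL (19.7%, beside 35.6% of tested genes) and 24 were lower (39.3%, beside 38.7%). The 24 genes below 0.5 FPKM in both lines passed the filter through the CPI-169 libraries alone. Of the 35 genes that pass without those libraries, 11 were higher (31.4%, beside 35.9% of tested genes that pass in this way) and 21 lower (60%, beside 39.4%), counts added after the data were seen. Being silent in KARPAS-422 with DMSO, these 35 could pass only through Pfeiffer or RL libraries, so no conclusion is drawn from their shares. Of all calls 47.9% were higher in RL, and 33.2% after scaling to equal medians, which shifted the median of all genes to -0.31, against -0.03 as deposited. Quantile normalization shifted it to 0.13 and gave 19 of the 61 genes higher and 19 lower, beside 41.8% and 33.2% of tested genes. S100A4 was higher in RL, at 32.7 and 32.8 FPKM against 0.21 and 0.258 FPKM in Pfeiffer (log2 difference 4.77 ± 0.18 (SE), limma adjusted p = 1.65e-09). Likewise higher were GNG7 (log2 difference 3.55), NREP (3.42), FHL3 (2.98), MAP1LC3C (2.67) and MPEG1 (1.57), with limma adjusted p of 6.77e-08 or less. NREP measured 23.9 and 22.2 FPKM in RL against 1.35 and 1.15 FPKM in Pfeiffer, FHL3 measured 16 and 16.8 FPKM against 1.03 and 1.39 FPKM, and MPEG1 measured 2.04 and 2.19 FPKM against 0.0302 and 0.0688 FPKM. Of these 6 genes, all but MPEG1 stood higher in RL without inhibitor than in KARPAS-422 with CPI-169.

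IL13RA1 had the lowest log2 difference, at 0.322 and 0.342 FPKM in RL against 38.3 and 40.3 FPKM in Pfeiffer (log2 difference -4.92 ± 0.16 (SE), limma adjusted p = 5.42e-10). OPTN was at 0.0338 and 0.0438 FPKM in RL against 18.1 and 19.8 FPKM in Pfeiffer, and AIM2 at 1.6 and 1.46 FPKM against 31.9 and 32.7 FPKM. PTPLAD2, at 0.108 and 0.151 FPKM in RL, CRYL1, listed at 0 there, and SPP1, at 1.62 and 1.63 FPKM, completed the 6 lower genes with the smallest adjusted p, with 13.7 and 13.6, 5.95 and 5.7 and 16.6 and 16.6 FPKM in Pfeiffer. Their log2 differences were -4.26 for OPTN, -3.72 for AIM2, -3.69 for PTPLAD2, -2.77 for CRYL1 and -2.74 for SPP1, with limma adjusted p of 3.26e-08 or less.

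The neighbourhoods of the 61 genes were described from the limma calls of the KARPAS-422 comparison for genes outside the set, with no further test. Within 100 kb lay 204 tested genes, and 90 of them were higher with CPI-169 (44.1%, beside 26.9% of all tested genes) and 41 were lower (20.1%, beside 27.3%). Higher by at least 1 on the log2 scale were 36 of the 204 (17.6%, beside 5.97% of tested genes outside the set). Genes that overlap one of the 61 were higher in 13 of 21 cases (61.9%), those apart but within 100 kb in 77 of 183 (42.1%), and those at 100 to 500 kb in 159 of 579 (27.5%), close to the 26.7% of all tested genes outside the set. Of all calls in KARPAS-422 49.7% were higher, and 62.7% after scaling to equal medians, where 53.9% of the 204 neighbours and 33.6% of the tested genes outside the set were higher. The share of neighbours was 41.2% to 48.5% with each library left out in turn.

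**Figure D5:**
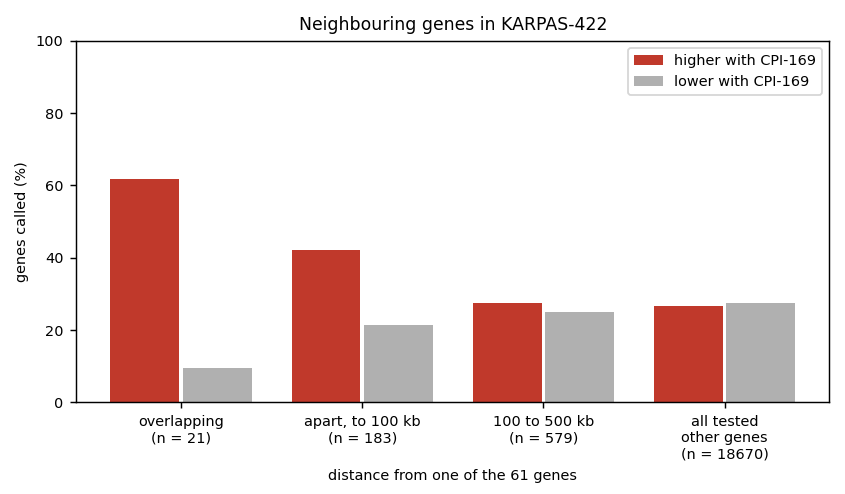
Percent of genes called higher (left bar of each pair) and lower (right bar) with CPI-169 than with DMSO in KARPAS-422, by distance from the nearest of the 61 genes, with the number of genes under each pair. The higher bars go down from 61.9% for overlapping genes to 27.5% at 100 to 500 kb, where they meet the 26.7% of all other tested genes.

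Several of these neighbours are interferon-stimulated genes. XAF1, a mediator of apoptosis 575 bases from FBXO39, measured 145, 152 and 150.1 FPKM with CPI-169, against 5.57, 7.64 and 6.45 FPKM with DMSO, a log2 difference of 4.32. IFI16, a DNA sensor 7328 bases from AIM2, measured 117, 105 and 114 FPKM with CPI-169 against 23.5, 26.9 and 26.7 FPKM with DMSO. IFI35, 10784 bases from RND2, was at 84.2, 70.5 and 83.9 FPKM with CPI-169 against 9.08, 8.8 and 8.7 FPKM with DMSO. Others of the kind were SAMD9L and SAMD9 near HEPACAM2, APOL2 near APOL3, HLA-F near GABBR1, and IFI6 over RP11-288L9.4, with log2 differences of 1.62, 1.19, 1.03, 1.86 and 3.84. Whether the 61 genes beside them moved with interferon signalling was not tested.

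Clusters of related genes made up another kind of neighbourhood. Around S100A4 lay S100A6 at 46.8, 37.5 and 44.5 FPKM with CPI-169 against 6.24, 9.07 and 9.7 FPKM with DMSO, S100A13 and S100A1, with log2 differences of 2.25, 1.49 and 1.26. The water channel gene AQP5, 2988 bases from AQP2, was at 2.84, 2.65 and 2.91 FPKM with CPI-169 against 0.445, 0.555 and 0.508 FPKM with DMSO. PARVB, 3729 bases from PARVG, was at 8.85, 7.66 and 8.98 FPKM with CPI-169 against 2.46, 2.53 and 3.1 FPKM with DMSO, and LGALS14, 17932 bases from the pseudogene LGALS17A, was at 16.5, 12.7 and 15.8 FPKM against 0.432, 1.11 and 1.18 FPKM. Neighbours from unrelated families were raised as well, among them CDK5RAP3 near PRR15L at 201, 193 and 199 FPKM with CPI-169 against 48.1, 52.9 and 51.6 FPKM with DMSO, MXD4 near ZFYVE28, PDK3 near GS1-358P8.4, PLCB2 near C15orf52, PCTP near TMEM100 and LONRF3 near KIAA1210. The log2 differences of the last 5 were 2.00, 1.97, 2.40, 1.64 and 1.84. Lower by at least 1 were 3 neighbours, CTD-2587H24.10 near DNAAF3, SGTA near GNG7 and RUNDC1 near RND2.

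Overlap with another tested gene touched 16 of the 61 genes, and 13 of them overlapped one that was higher with CPI-169, so the level of either gene of such a pair is uncertain. The overlapping partners higher with CPI-169 were RP11-469H8.6 for AQP2, CLYBL for CLYBL-AS2, MFSD2B for FKBP1B, CHTF18 for GNG13, CTD-2073O6.1 for LHFPL2, DTX4 for MPEG1, CCDC3 for OPTN, FOCAD for PTPLAD2, IFI6 for RP11-288L9.4, AC098617.1 for SDPR, SETD5-AS1 for SRGAP3, CMAS for ST8SIA1 and VAV3 for VAV3-AS1. The partners were at times far above the gene they overlap, as IFI6 was over RP11-288L9.4, and over AQP2 RP11-469H8.6 measured 25.5, 19.8 and 25.1 FPKM with CPI-169 against 2.56, 3.46 and 3.07 FPKM with DMSO. No pair of the 61 genes lay within 100 kb of each other. Within 500 kb were IL13RA1 and KIAA1210, 284.1 kb apart on chromosome X, and LGALS9 and LYRM9, 228.8 kb apart on chromosome 17.

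The 61 genes were 0.151% of all genes silent with DMSO in KARPAS-422, so lists of this size would hold about none of them at that share, and the counts that follow are a description. Of 160 developmental transcription factors 132 were below 0.5 FPKM in all DMSO libraries and none was among the 61; the highest of them with CPI-169 was TFAP2A, with a mean of 0.739 FPKM. Of 111 neuronal and synaptic genes 91 were silent and none was among the 61, and NCAM1, with a mean of 2.18 FPKM, missed the limit in at least 1 library. Silent genes were 29 of 44 on the muscle list, 45 of 49 epithelial, 44 of 58 stromal, 36 of 47 T and NK cell, 41 of 44 myeloid, 48 of 55 cancer-testis, 2 of 22 B cell and 1 of 7 cyclin-dependent kinase inhibitor genes, and none of them was among the 61. The interferon-stimulated list outside the IFI family held 17 silent genes of 64, of which APOL3 was the single one among the 61. LGALS9 is not on that list. Of the 52 tested genes of the list, APOL3 included, 46 were higher and 0 lower in KARPAS-422 with CPI-169, beside 26.9% and 27.3% of all tested genes. In Pfeiffer with GSK343, 24 were higher and 1 lower, beside 12% and 17.5%. Among 15 PRC2 and H3K27 demethylase genes, 3 were higher and 7 lower in KARPAS-422 with CPI-169, beside 26.9% and 27.3% of all tested genes, and 2 were higher and 6 lower in Pfeiffer with GSK343, beside 12% and 17.5%.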

How the data were processed

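The authors deposited 1 table of FPKM values for 63129 Ensembl genes in 12 libraries. TopHat 1.4.1 (build hg19) and Cufflinks made them, per the submitters' processing notes; what Cufflinks version, annotation, library kit and strand setting were used is not given in the sources used here. Without read counts the depth is unknown and no interval for counting error can be had, and an exact 0 may stand for a failed estimate. The labels do not say whether replicates are separate cultures; p-values then cover the scatter of these samples alone, and that scatter may be technical. Cells were lysed in Trizol or in buffer RLT, per the labels' protocols, which do not tell the libraries apart, so a difference in extraction between groups was not tested. Missing values left out 77 genes.

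The rule for the 61 genes and all gene lists were chosen with earlier results of these data known. The 18731 genes that reached 1 FPKM in 2 or more libraries were transformed to log2(FPKM + 1), which understates changes of low genes, and the 5 groups were fitted together in limma 3.58.1 under R 4.3.3, with a trend of variance on level, 7 residual degrees of freedom (3.45 prior) and a Benjamini-Hochberg threshold of 0.05. On simulated data for 18731 genes this fit recovered 38.8% of 1.5-fold, 74.6% of 2-fold and 93.9% of 4-fold changes for the Pfeiffer comparison, with 10 false calls among 148. For the RL comparison the shares were 44.8%, 77.6% and 92.4%, with 5 of 148. In both, changes were planted on the scale of FPKM + 1, in genes with a mean above 1 in Pfeiffer DMSO as log2(FPKM + 1). The shares therefore do not cover the 30 of the 61 genes below 0.5 FPKM in both Pfeiffer DMSO libraries. Noise was drawn independently between genes, with 1 spread per gene for all libraries. The real GSK343 replicates differed more, at a Pearson's r of 0.97 beside 0.993 or more in the other groups. The recovery and false calls for the Pfeiffer comparison therefore do not cover that wider spread. Gene positions are 1-based hg19 from the deposited table; classes came from GENCODE 29, and promoters, matched for 41 genes, from RefSeq on GRCh38.p14. Values per library are given for the 12 highest genes with CPI-169, the 6 smallest adjusted p per direction and comparison, the 5 highest in Pfeiffer DMSO and in RL, list members and the genes nearest each limit; AQP2, FKBP1B, ST8SIA1, S100A10, G0S2, P4HA2, SDPR, RP3-523C21.1 and CLYBL-AS2 and the gene neighbours described singly were added after their values were seen. Alternatives changed the limits, pseudocount, filter, scaling, libraries and samples in the fit. With replicate numbers compared within a line, deviations of same-numbered libraries correlated at 0.14 in Pfeiffer (2 pairs) and at -0.15, -0.25 and 0.16 in KARPAS-422, so the numbers were not taken to pair the samples.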

Additional observations from a re-analysis of the deposited data

Results flagged for a closer look

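In 2 of the 61 genes (3.28%, beside 34% of tested genes) every Pfeiffer library with GSK343 lay below every DMSO library. In KARPAS-422 every CPI-169 library of the 61 genes lay above every DMSO library, as the choice of genes sets. SPP1 had a log2 difference of -1.60 in Pfeiffer, with 5.77 and 4.01 FPKM with GSK343 against 16.6 and 16.6 FPKM with DMSO, and in KARPAS-422 3.91, 3.06 and 4.16 FPKM with CPI-169 against 0.329, 0.332 and 0.38 FPKM with DMSO. PTPLAD2 had a log2 difference of -0.59 in Pfeiffer, with 8.5 and 8.98 FPKM with GSK343 against 13.7 and 13.6 FPKM with DMSO, and in KARPAS-422 4.37, 3.68 and 4.02 FPKM with CPI-169 against 0.204, 0.204 and 0.157 FPKM with DMSO. The difference between the lines was not tested, because the KARPAS-422 values chose the genes, and compound and line cannot be told apart.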

How the results depend on the processing

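The limits decide the size of the set: 19 genes with a DMSO limit of 0.25 FPKM, 209 with 1 FPKM, 241 with a CPI-169 limit of 1 FPKM and 16 with 4 FPKM, and 64 to 75 with each KARPAS-422 library left out in turn. The 24 genes higher with GSK343, beside 12% of tested genes, became 9 under a filter at 5 FPKM. That filter keeps 24 of the 61 genes, and 11.9% of its tested genes were higher. With Pfeiffer fitted alone on the same genes as the main fit, none of the 61 and none of the tested genes was higher. With Pfeiffer fitted alone on genes filtered in those libraries, a fit chosen after seeing the data, the count was 2, beside 1.6% of tested genes. The 2 lower genes became 0 and 1 in the 2 fits of Pfeiffer alone, where 2 residual degrees of freedom are left. Of tested genes 0% and 3.43% were lower in these fits. Leaving out each library in turn gave 13 to 30 higher and 2 to 4 lower genes for GSK343. The 12 genes higher in RL, beside 35.6% of tested genes, became 7 at 5 FPKM and 19 after quantile normalization. Of tested genes 40.5% and 41.8% were higher in these settings. The 24 lower ones, beside 38.7% of tested genes, became 11 at 5 FPKM, where 36.2% of tested genes were lower. The cause of the change with quantile normalization was not tested. Neighbours, whose alternatives were chosen after seeing the data, were higher in 31.8% of cases within 500 kb, 53.9% after scaling to equal medians, and 41.2% to 48.5% with each library left out. SDPR changed direction, to -0.13 without the first GSK343 library, and passed at 1.46 without the second. A fit with the replicate number as a block left 21 higher and 2 lower genes for GSK343, beside 11.4% and 15.7% of tested genes. For RL it left 11 higher and 22 lower genes, beside 35% and 37% of tested genes. Same-numbered samples share only a number. Over single genes and settings, 719 results kept direction and side of the threshold, 113 were no longer past it, 3 passed newly and 1 reversed. FPKM without counts gives no precision per gene, so values under 0.5 FPKM may differ from 0 by sampling alone.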
